A study of Mus musculus with 14 samples.

Results

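The genes described here are 9 genes of aldehyde oxidation and retinoid handling, out of 19935 genes measured. They are the aldehyde dehydrogenase genes Aldh3a1, Aldh1a1, Aldh1a2, Aldh1a3 and Aldh2, the binding protein genes Crabp1 and Crabp2, the receptor gene Rarb and the breakdown enzyme gene Cyp26b1. The list was set by name with earlier results of these arrays in view: Aldh3a1 was chosen by its high level after SKO. Each gene had 1 probe set, so the rule of taking the one with the highest mean chose nothing. The RNA of mouse embryonic fibroblasts (ICR strain), grown in a medium for mouse embryonic stem cells, was hybridised to 14 whole-transcript arrays from Affymetrix. The cells received SKO with an empty Flag vector (SKO+Flag), SKO with HDAC7 (SKO+HDAC7), SKO with MEF2C (SKO+MEF2C) or GFP without SKO, and were lysed at day 6 or day 10. SKO is not written out in the labels and is commonly used for Sox2, Klf4 and Oct4, the reprogramming factors. Each SKO group had 2 arrays per day and GFP had 1 array per day. Feeder cells were removed before lysis. Nothing in the labels says that the 2 arrays of a group came from separate cultures, and the spread that the p-values measure, that between the arrays, may be a technical one.

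Retinol is oxidised to retinal by retinol and short-chain dehydrogenases, and retinal is oxidised to retinoic acid by the enzymes of the Aldh1a family. Cellular retinoic acid binding proteins carry retinoic acid in the cytosol, where Crabp2 is known for passing it to nuclear receptors and Crabp1 for holding it and presenting it for breakdown by Cyp26 enzymes. Retinoic acid acts through receptors such as Rarb, whose own gene is a classical target of retinoic acid. HDAC7 is a histone deacetylase that binds and represses transcription factors of the MEF2 family, to which MEF2C belongs.

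Promoters of 5 of the 9 genes were matched in RefSeq (GRCm38.p6), as the 250 bases before each transcription start. Those of 3 genes are shown because they stand for 3 patterns in the arrays: Aldh1a1 went in opposite directions under the 2 added factors, Crabp1 rose between the days in every SKO group, and Rarb stayed below the median gene on every array. Capitals mark motif matches on either strand: the octamer ATGCAAAT, bound by Oct4 and related factors, in Aldh1a1; the GC box GGGCGG or its complement in Crabp1; and in Rarb a retinoic acid response element, which is a direct repeat of a half-site with a spacer of 5 bases.
Aldh1a1, chr19:20601718-20601967, plus strand: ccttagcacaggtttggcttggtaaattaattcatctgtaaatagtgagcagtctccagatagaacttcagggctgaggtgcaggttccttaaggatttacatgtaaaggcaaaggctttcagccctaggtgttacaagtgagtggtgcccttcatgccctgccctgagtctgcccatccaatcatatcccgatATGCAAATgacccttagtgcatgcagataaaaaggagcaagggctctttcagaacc
Crabp1, chr9:54764498-54764747, plus strand: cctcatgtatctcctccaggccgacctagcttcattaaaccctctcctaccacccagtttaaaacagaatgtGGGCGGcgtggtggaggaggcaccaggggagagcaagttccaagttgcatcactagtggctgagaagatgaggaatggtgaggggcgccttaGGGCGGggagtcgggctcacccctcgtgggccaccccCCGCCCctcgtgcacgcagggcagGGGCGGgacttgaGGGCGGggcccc
Rarb, chr14:16575477-16575726, minus strand: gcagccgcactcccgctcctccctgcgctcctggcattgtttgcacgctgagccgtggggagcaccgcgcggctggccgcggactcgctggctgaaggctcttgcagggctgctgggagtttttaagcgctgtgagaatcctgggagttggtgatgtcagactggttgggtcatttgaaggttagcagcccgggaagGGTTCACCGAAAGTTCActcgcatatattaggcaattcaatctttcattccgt
The octamer of Aldh1a1 begins 56 bases before the start shown, and a further Aldh1a1 window, chr19:20492333-20492582, has no octamer. Over all 32851 RefSeq promoter windows of this length, 1.6% hold that octamer; Aldh1a2 holds it 84 bases before its start. The Crabp1 window holds 5 GC boxes, a motif present in 32.7% of windows, and the Cyp26b1 window, not shown, holds 3. The repeat in Rarb begins 53 bases before the start and this direct-repeat-5 element occurs in 0.0883% of windows. The direct repeat with a spacer of 2 bases (0.174% of windows), the half-site AGGTCA alone (14% of windows) and the MEF2 box (2.92% of windows) had no match in the 6 windows of these 5 genes. A match is a string of letters and was not tested as a binding site.

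The transduced factors were read first as a check of the labels. Hdac7 averaged 11.2 on the log2 scale in SKO+HDAC7 and 6.94 in SKO+Flag, and Mef2c averaged 9.73 in SKO+MEF2C and 6.66 in SKO+Flag. Pou5f1, which encodes Oct4, was 6.75 ± 0.07 (SE) higher in SKO+Flag than in GFP, whereas the probe sets of Sox2 and Klf4 differed by 0.16 and 0.17. Whether those 2 probe sets lie within the transduced sequences was not tested. All 10 fibroblast markers lay above the array median on all 14 arrays, and all 6 markers of pluripotent cells lay below it. In these bulk samples, fewer cells expressing a gene and less RNA per cell cannot be told apart.

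Aldh3a1, an aldehyde dehydrogenase that is abundant in the cornea and stomach and detoxifies aldehydes of lipid peroxidation, had the widest range of the 9 genes. Its log2 values in GFP were 5.14 at day 6 and 5.33 at day 10. In SKO+Flag they were 10.55 and 10.59 at day 6 and 10.93 and 10.96 at day 10. In SKO+HDAC7 they were 11.26 and 11.37 at day 6 and 11.46 and 11.33 at day 10, and in SKO+MEF2C 9.66 and 9.54 at day 6 and 10.23 and 10.31 at day 10. The 12 SKO arrays thus lay far above both GFP arrays, with SKO+HDAC7 highest, SKO+MEF2C lowest among them, and no overlap between the 3 SKO groups within a day or across days. SKO+Flag was 5.52 ± 0.06 (SE) above GFP, 46.0-fold, which is a description because this difference put the gene on the list. The GFP values lie below the array medians of 5.91 to 5.98, so the fold rests on a level where signal and background were not separated.

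HDAC7 raised Aldh3a1 and MEF2C lowered it. Averaged over both days, SKO+HDAC7 was 0.60 ± 0.05 above SKO+Flag (1.52-fold, limma adjusted p = 3.05e-05). SKO+MEF2C was lower than SKO+Flag by 1.76-fold, a difference of -0.82 ± 0.05 (limma adjusted p = 4.18e-06). These comparisons share the SKO+Flag arrays. Set directly against each other, SKO+HDAC7 exceeded SKO+MEF2C by 1.42 ± 0.05 (2.67-fold, limma adjusted p = 1.35e-08). The HDAC7 difference was 0.75 at day 6 and 0.45 at day 10, and the MEF2C difference -0.97 and -0.67. Between the days Aldh3a1 rose in SKO+Flag by 0.38 ± 0.07 (limma adjusted p = 0.00763) and in SKO+MEF2C by 0.67 ± 0.07 (limma adjusted p = 0.00052). In SKO+HDAC7, already the highest at day 6, the difference of 0.08 ± 0.07 did not pass the test (limma adjusted p = 0.546).

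**Figure D1:**
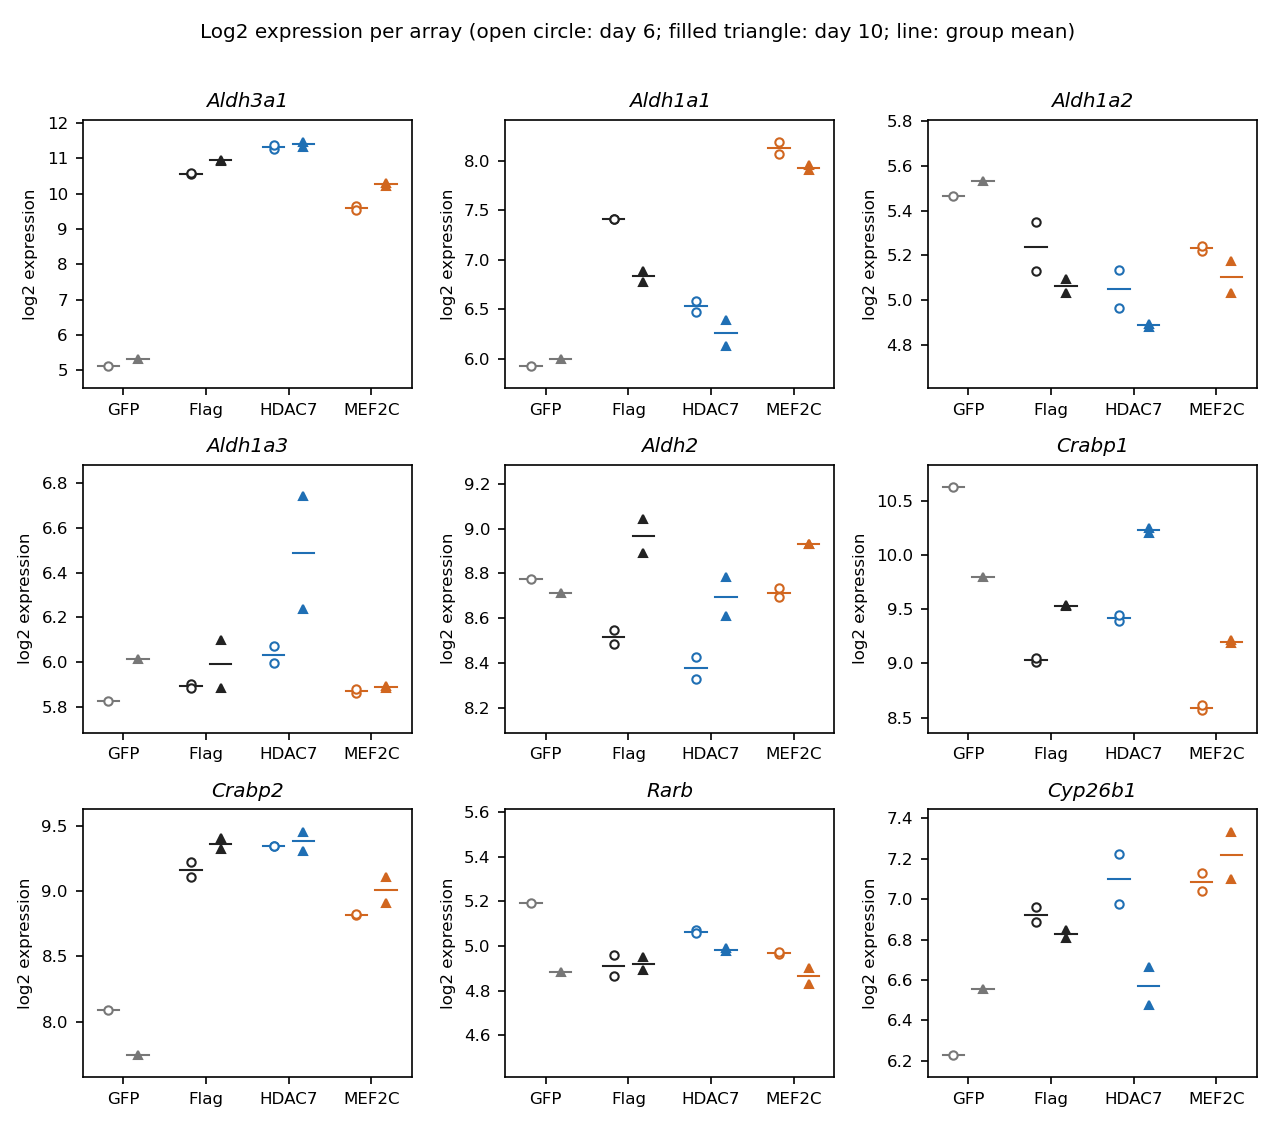
Log2 expression of the 9 genes on each array, by vector; open circles are day 6, filled triangles day 10 and short lines group means. Each panel has its own vertical axis, so heights cannot be compared between genes; Aldh3a1 lies at 5.14 and 5.33 in GFP and between 9.54 and 11.46 in the SKO arrays.

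Aldh1a1, the cytosolic enzyme that oxidises retinal to retinoic acid, moved opposite to Aldh3a1 under the added factors. Its log2 values were 5.93 and 6.0 in GFP at days 6 and 10. They were 7.41 and 7.41 in SKO+Flag at day 6 and 6.78 and 6.89 at day 10. SKO+HDAC7 gave 6.47 and 6.59 at day 6 and 6.13 and 6.39 at day 10, and SKO+MEF2C gave 8.06 and 8.19 at day 6 and 7.91 and 7.96 at day 10. GFP was lowest, SKO+HDAC7 next, then SKO+Flag, with SKO+MEF2C highest on both days and no overlap between these groups. HDAC7 lowered Aldh1a1 relative to SKO+Flag by 1.66-fold over both days, a difference of -0.73 ± 0.06 (limma adjusted p = 3.51e-05). MEF2C raised it 1.87-fold, a difference of 0.91 ± 0.06 (limma adjusted p = 8.13e-06) against the same SKO+Flag arrays. The direct difference of SKO+HDAC7 from SKO+MEF2C was -1.63 ± 0.06 (3.10-fold, limma adjusted p = 2.01e-08). Both effects passed the test on each day: -0.88 and -0.58 for HDAC7, and 0.72 and 1.10 for MEF2C, at days 6 and 10. With the spread taken from the compared groups alone, the day 10 HDAC7 call was lost (limma adjusted p = 0.0624). Aldh1a1 fell from day 6 to day 10 in SKO+Flag by 0.58 on the log2 scale (SE 0.09, limma adjusted p = 0.00215). The day differences of -0.27 in SKO+HDAC7 and -0.20 in SKO+MEF2C did not pass (limma adjusted p = 0.0664 and 0.363), although the first did without the second day 10 array of SKO+HDAC7 (limma adjusted p = 0.0206) and after quantile normalization (0.0216).

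Aldh1a2, a further enzyme that makes retinoic acid from retinal, known for retinoic acid synthesis in the embryonic mesoderm, lay below the median gene on 14 of 14 arrays, between 4.88 and 5.53. It was highest on the 2 GFP arrays and the SKO groups overlapped. The difference of SKO+HDAC7 from SKO+Flag was -0.18 ± 0.06 and did not pass the test (limma adjusted p = 0.0819), but it passed after quantile normalization (0.0174), after median centring (0.0327) and without the first day 6 array of SKO+Flag (0.0367). The difference of SKO+HDAC7 from SKO+MEF2C was -0.20 (limma adjusted p = 0.0364). That call was lost without any 1 of 6 arrays, namely the second day 6 and both day 10 arrays of SKO+HDAC7, both day 6 arrays and the first day 10 array of SKO+MEF2C (limma adjusted p 0.0808 to 0.129).

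Aldh1a3, a retinal dehydrogenase of the developing eye and nose, lay near the array median, below it on 8 of 14 arrays. SKO+HDAC7 gave 6.07 and 6.0 at day 6 and 6.24 and 6.74 at day 10. SKO+Flag gave 5.90 and 5.88 at day 6 and 6.10 and 5.88 at day 10, and the other 6 arrays lay between 5.82 and 6.01. The second day 10 array of SKO+HDAC7 stood well above its partner. Set directly against SKO+MEF2C over both days, SKO+HDAC7 was higher by 0.38 ± 0.09 (limma adjusted p = 0.0117). SKO+HDAC7 exceeded SKO+Flag by 0.50 ± 0.13 at day 10 (limma adjusted p = 0.043), and the mean over both days, 0.32 ± 0.09, missed the threshold (limma adjusted p = 0.0502). That mean passed without the first day 10 array of SKO+Flag (0.0346) or of SKO+HDAC7 (0.00171), and with a robust prior (0.0278). The day 10 call was lost without any 1 of 10 SKO arrays, and the range of adjusted p over those 10 fits was 0.0603 to 0.215. Without the second day 10 array of SKO+HDAC7 the difference was 0.25 (limma adjusted p = 0.215), and without the second day 10 array of SKO+Flag it was 0.39 (0.169); the other 8 were both day 6 arrays of each SKO group and both day 10 arrays of SKO+MEF2C. The day 10 call was also lost with the compared groups alone (0.239), array weights (0.0707), quantile normalization (0.062) and median centring (0.0597). The day 10 minus day 6 rise of 0.46 in SKO+HDAC7 (limma adjusted p = 0.0394) was lost without any 1 of 9 arrays (0.0531 to 0.249), which were both day 6 arrays of SKO+Flag, all arrays of SKO+HDAC7 but the first at day 10, and all 4 of SKO+MEF2C. Without the second day 10 array of SKO+HDAC7 the rise was 0.20 (limma adjusted p = 0.249).

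Aldh2, the mitochondrial enzyme best known for clearing acetaldehyde, differed little between vectors. It gave 8.55 and 8.49 in SKO+Flag at day 6 and 9.05 and 8.89 at day 10. SKO+HDAC7 gave 8.42 and 8.33 at day 6 and 8.78 and 8.61 at day 10. SKO+MEF2C gave 8.73 and 8.69 at day 6 and 8.93 and 8.93 at day 10, and GFP 8.77 and 8.71. The SKO+HDAC7 arrays lay below the SKO+Flag arrays on each day, while the day 10 arrays were higher in all 3 SKO groups. Set directly against SKO+MEF2C over both days, SKO+HDAC7 differed by -0.29 ± 0.05 (limma adjusted p = 0.00261). Aldh2 rose from day 6 to day 10 by 0.45 ± 0.08 in SKO+Flag (limma adjusted p = 0.00345) and by 0.32 ± 0.08 in SKO+HDAC7 (limma adjusted p = 0.0164), whereas the 0.22 in SKO+MEF2C did not pass (0.197). The rise in SKO+HDAC7 was lost without its second day 6 array (0.0992) or its first day 10 array (0.123). The HDAC7 effect over both days, -0.21 ± 0.05, passed narrowly (limma adjusted p = 0.0327). It was lost without any 1 of 7 arrays (0.0506 to 0.109), which were both day 6 arrays and the first day 10 array of SKO+Flag, the second array of SKO+HDAC7 on each day and both day 10 arrays of SKO+MEF2C. It was also lost after quantile normalization (0.0977) and with the compared groups alone (0.0789).

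Crabp1, the cytosolic retinoic acid binding protein gene, was highest in GFP at day 6 and rose with time in the SKO groups. GFP gave 10.63 at day 6 and 9.80 at day 10. SKO+Flag gave 9.02 and 9.05 at day 6 and 9.53 and 9.54 at day 10. SKO+HDAC7 gave 9.40 and 9.44 at day 6 and 10.21 and 10.26 at day 10, and SKO+MEF2C 8.57 and 8.62 at day 6 and 9.22 and 9.19 at day 10. On each day SKO+HDAC7 was highest of the SKO groups and SKO+MEF2C lowest, with no overlap, and at day 10 the SKO+HDAC7 arrays exceeded the GFP array. HDAC7 raised Crabp1 by 0.54 ± 0.04 over both days (1.46-fold, limma adjusted p = 9.97e-06). MEF2C lowered it 1.31-fold against the same SKO+Flag arrays, a difference of -0.39 ± 0.04 (limma adjusted p = 0.000106), although the day 10 call, -0.33, was lost with the compared groups alone (0.0596). SKO+HDAC7 exceeded SKO+MEF2C directly by 0.93 ± 0.04 (1.90-fold, limma adjusted p = 3.81e-08).

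The day change of Crabp1 passed the test in all 3 SKO groups. It rose from day 6 to day 10 by 0.50 ± 0.06 in SKO+Flag (limma adjusted p = 0.00026). It rose by 0.81 ± 0.06 in SKO+HDAC7 (1.75-fold, limma adjusted p = 4.96e-06) and by 0.61 ± 0.06 in SKO+MEF2C (limma adjusted p = 0.000222). In GFP, with 1 array per day, the day 10 value was lower than the day 6 value by 0.83, so the gap of SKO+Flag below GFP was -1.60 at day 6 and -0.27 at day 10. The HDAC7 effect on Crabp1 was 0.39 at day 6 and 0.70 at day 10, and this change of 0.31 ± 0.08 did not pass the test (limma adjusted p = 0.172).

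Crabp2, whose protein passes retinoic acid to nuclear receptors, was higher in every SKO array than in GFP. GFP gave 8.08 at day 6 and 7.74 at day 10, and SKO+Flag gave 9.22, 9.11, 9.32 and 9.41 on its day 6 and then its day 10 arrays. SKO+HDAC7 gave 9.34, 9.35, 9.31 and 9.46 in the same order, overlapping SKO+Flag, and SKO+MEF2C gave 8.82, 8.82, 8.91 and 9.11. The SKO+MEF2C arrays lay below the SKO+Flag arrays of the same day. Relative to SKO+Flag, Crabp2 fell by 0.35 ± 0.06 with MEF2C over both days (1.27-fold, limma adjusted p = 0.00248). The HDAC7 difference of 0.10 ± 0.06 did not pass (limma adjusted p = 0.31). Directly, SKO+HDAC7 exceeded SKO+MEF2C by 0.45 ± 0.06 (limma adjusted p = 0.000167). The MEF2C difference passed on each day, -0.34 (limma adjusted p = 0.0458) and -0.36 (limma adjusted p = 0.022), and both calls were lost with the compared groups alone (0.0716 and 0.127). At day 6 the call was lost without either array of SKO+Flag or of SKO+MEF2C at that day or any 1 array of SKO+HDAC7 (0.0509 to 0.235), and at day 10 without the second SKO+Flag array (0.0932) or the first SKO+MEF2C array (0.195) of that day. SKO+Flag was 1.35 ± 0.07 above GFP over both days, given as a description.

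Rarb, the retinoic acid receptor beta gene, was low on every array. It lay below the array median on 14 of 14 arrays, between 4.83 and 5.19, a range narrower than that of any other of the 9 genes. The 4 SKO+HDAC7 arrays lay between 4.98 and 5.07 and exceeded the SKO+Flag arrays of their day, but the difference of 0.11 ± 0.04 did not pass the test (limma adjusted p = 0.133). In SKO+MEF2C the difference from SKO+Flag was 0.00 ± 0.04 (limma adjusted p = 0.987).

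Cyp26b1, a cytochrome P450 that breaks down retinoic acid, was higher in SKO+MEF2C and lower at day 10 in SKO+HDAC7. GFP gave 6.23 at day 6 and 6.56 at day 10. SKO+Flag gave 6.89, 6.96, 6.81 and 6.85 on its day 6 and then its day 10 arrays. SKO+HDAC7 gave 6.98 and 7.22 at day 6 and 6.66 and 6.48 at day 10, and SKO+MEF2C gave 7.04, 7.13, 7.10 and 7.33. All 4 SKO+MEF2C arrays exceeded all 4 SKO+Flag arrays, while SKO+HDAC7 lay above SKO+Flag at day 6 and below it at day 10. Over both days SKO+HDAC7 differed from SKO+MEF2C by -0.32 ± 0.07 (limma adjusted p = 0.00851). MEF2C raised Cyp26b1 by 0.28 ± 0.07 over both days (1.21-fold, limma adjusted p = 0.0339). That call was lost without any 1 of 7 arrays (0.0545 to 0.123), namely all 4 of SKO+Flag, both day 6 arrays and the second day 10 array of SKO+MEF2C. At day 10 alone the difference was 0.39 (limma adjusted p = 0.0435). This call was lost without any 1 of the same 7 arrays, where the difference was 0.27 to 0.41. It was also lost with array weights (limma adjusted p = 0.0677), the compared groups alone (0.116) and median centring (0.0536).

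In SKO+HDAC7, Cyp26b1 fell between the days by 0.53 on the log2 scale (SE 0.10, limma adjusted p = 0.00539), and without the second day 10 array of that group the adjusted p was 0.0598. The HDAC7 effect was 0.18 at day 6 and -0.26 at day 10, and neither passed. The change between them, -0.43 ± 0.14, did not pass either (limma adjusted p = 0.284).

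The list was set with earlier results of these arrays known, and Aldh3a1 was listed for its level in SKO+Flag against GFP. Those SKO+Flag arrays also enter the HDAC7 and MEF2C counts and the day change of that group. Shares of all genes are therefore printed as a background, and no test of the list was run. Counted over the list, HDAC7 changed 4 of the 9 genes over both days, where 10.9% of all genes passed. Aldh3a1 and Crabp1 rose (4.83% of all genes did), and Aldh1a1 and Aldh2 fell (6.06%). MEF2C changed 5 of 9, where 10.3% passed: Aldh1a1 and Cyp26b1 rose (5.49% of all genes), and Aldh3a1, Crabp1 and Crabp2 fell (4.82%). The 9967 genes above the median level were also fitted and adjusted alone. There 2058 passed for HDAC7 and 2084 for MEF2C, with 5 members in each. In the main fit of all genes 2171 and 2054 passed. That filter left out Aldh1a2 and Rarb. Aldh1a3 (mean over all arrays 6.01, cut 5.96) was the member gained under HDAC7. Its mean was 6.26 in SKO+HDAC7, against 5.94 in SKO+Flag, 5.88 in SKO+MEF2C and 5.92 in GFP. Aldh1a3 thus passed the filter only through SKO+HDAC7, and its call there is not support for an HDAC7 effect. The direct comparison of SKO+HDAC7 with SKO+MEF2C called 8 of 9, where 22% passed, with 4 higher (10.3%) and 4 lower (11.8%) and Rarb the exception (0.10, limma adjusted p = 0.101). The median difference of the 9 genes was 0.10 under HDAC7 and 0.00 under MEF2C, against 0.02 and 0.01 for all genes, since the list holds genes that moved both ways. HDAC7 called 3 of 9 at day 6 (background 4.58%) and 4 of 9 at day 10 (7.27%), and MEF2C called 4 (3.1%) and 5 (7.01%). Arrays did not overlap with SKO+Flag, in 1 direction on both days, for 6 of 9 genes under HDAC7 (18.7% of all genes) and 5 of 9 under MEF2C (19%).

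**Figure D2:**
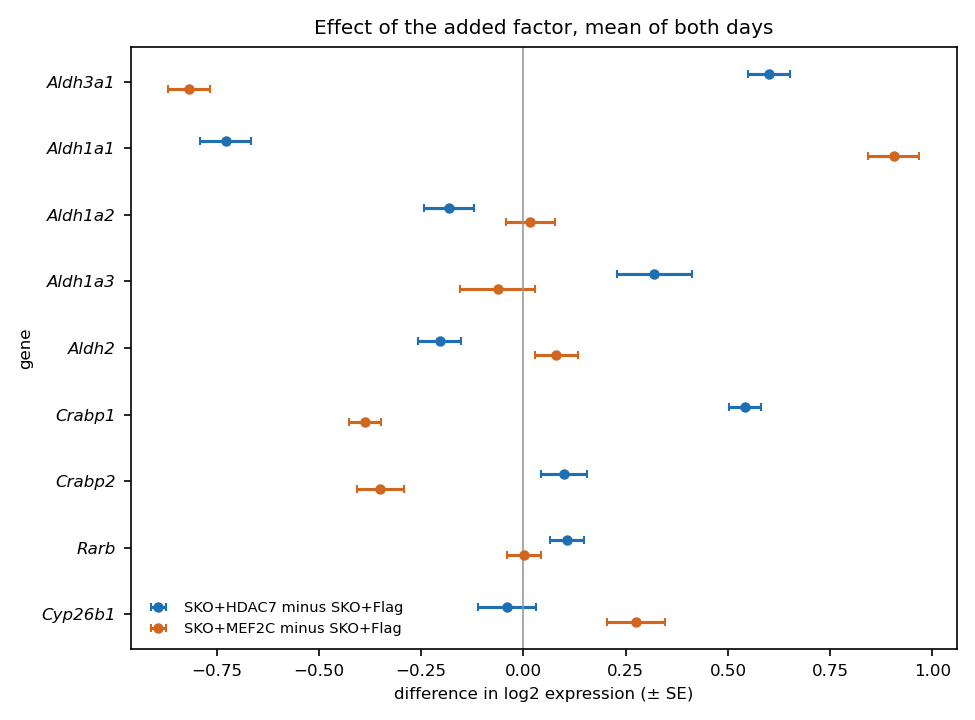
Difference in log2 expression from SKO+Flag for each of the 9 genes, averaged over both days, for SKO+HDAC7 (blue) and SKO+MEF2C (orange); bars are standard errors from the limma fit. Aldh3a1 and Crabp1 lie above 0 with HDAC7 (0.60 and 0.54) and below it with MEF2C (-0.82 and -0.39), and Aldh1a1 has the opposite signs (-0.73 and 0.91).

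Between day 6 and day 10, 4 of the 9 genes changed in SKO+Flag (8.08% of all genes), 4 in SKO+HDAC7 (14.6%) and 2 in SKO+MEF2C (3.08%). In SKO+Flag these were Aldh3a1, Aldh2 and Crabp1, which rose, and Aldh1a1, which fell. In SKO+HDAC7 they were Aldh1a3, Aldh2 and Crabp1, which rose, and Cyp26b1, which fell, and in SKO+MEF2C Aldh3a1 and Crabp1 rose. With the spread taken from the compared groups alone, the SKO+Flag calls of Aldh3a1 (limma adjusted p = 0.0597) and Aldh2 (0.0609) were lost. No member passed the limma test of a change of the HDAC7 effect between days (0.125% of all genes did), although 4 had an unadjusted p under 0.05. The change of the MEF2C effect likewise called 0 of 9 (0.0853% of all genes), with 2 at an unadjusted p under 0.05.

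**Figure D3:**
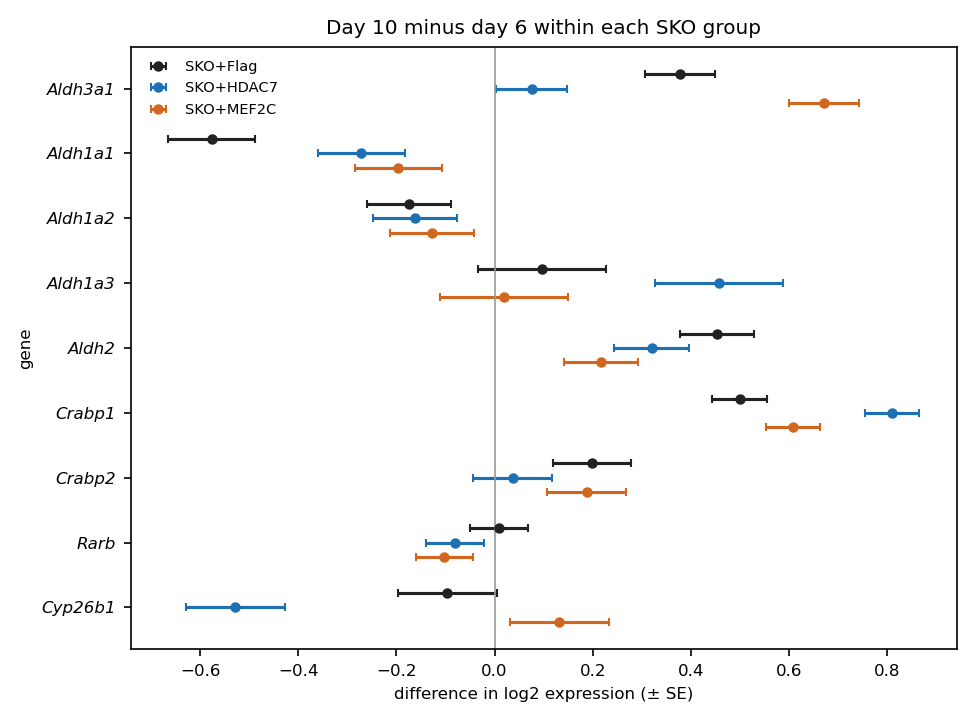
Day 10 minus day 6 difference in log2 expression for each of the 9 genes within SKO+Flag, SKO+HDAC7 and SKO+MEF2C; bars are standard errors from the limma fit. Crabp1 lies above 0 in all 3 groups (0.50, 0.81 and 0.61). The gene furthest below 0 is Aldh1a1 in SKO+Flag (-0.58) and Cyp26b1 in SKO+HDAC7 (-0.53).

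Against GFP, which had 1 array per day, the differences of the other 8 genes are given as descriptions. Averaged over days, SKO+Flag differed from GFP by 1.16 for Aldh1a1, 1.35 for Crabp2 and 0.48 for Cyp26b1. It differed by -0.93 for Crabp1 and -0.35 for Aldh1a2, and by 0.02, 0.00 and -0.12 for Aldh1a3, Aldh2 and Rarb. The mean for Aldh2 joins -0.26 at day 6 and 0.25 at day 10, and that for Rarb -0.28 and 0.04. SKO+MEF2C differed from the same GFP arrays by 2.06 for Aldh1a1, -1.32 for Crabp1, 1.00 for Crabp2 and 0.76 for Cyp26b1, and SKO+HDAC7 by 0.43, -0.39, 1.45 and 0.44. Aldh1a1 was thus furthest from GFP with MEF2C and nearest with HDAC7.

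Of 71 other genes of the pathway that were listed by role, 67 were measured, and most did not pass the tests. HDAC7 raised 5 and lowered 9 over both days, where 4.83% of all genes rose and 6.06% fell. MEF2C raised 10 and lowered 2, where 5.49% rose and 4.82% fell, and these shares are the background for each list that follows. The median difference of the 67 was 0.01 under HDAC7 and 0.03 under MEF2C, against 0.02 and 0.01 for all genes. Among 17 genes that interconvert retinol and retinal, HDAC7 raised 2 and lowered 1 (10.9% of all genes changed), and MEF2C raised 1 and lowered 2 (10.3%). Rdh10, the retinol dehydrogenase that makes retinal in the embryo, gave 7.63 and 7.66 in GFP and between 9.98 and 11.38 in the SKO arrays. It was highest with HDAC7 on each day, 11.38 and 11.29 at day 6 and 10.81 and 10.75 at day 10. It was lowest of the SKO groups with MEF2C, 10.17 and 10.23 at day 6 and 9.98 and 10.03 at day 10, and SKO+Flag lay between, without overlap. Rdh10 rose with HDAC7 by 0.38 ± 0.04 (limma adjusted p = 0.00021) and fell by 0.57 ± 0.04 with MEF2C (limma adjusted p = 1.28e-05). Adh7, an alcohol dehydrogenase that can oxidise retinol, rose with HDAC7 by 0.46 ± 0.07 (limma adjusted p = 0.00175), and Dhrs9, a short-chain dehydrogenase, rose with MEF2C by 0.54 ± 0.08 (limma adjusted p = 0.00125). Dhrs9 lay below the array median on every SKO+Flag and SKO+HDAC7 array.

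Among 15 other aldehyde dehydrogenase genes, HDAC7 raised 1 (4.83% of all genes rose) and lowered 4 (6.06% fell), and MEF2C raised 6 (5.49%) and lowered 0 (4.82%). Aldh1a7, a rodent relative of Aldh1a1, fell with HDAC7, a difference of -1.0 ± 0.07 (limma adjusted p = 6.24e-06), and rose with MEF2C by 0.91 ± 0.07 (limma adjusted p = 1.47e-05). The transcripts of Aldh1a7 and Aldh1a1 are closely similar, and whether their probe sets read each other's RNA was not tested, so the 2 results are uncertain as separate measurements. Between the days Aldh1a7 fell in all 3 SKO groups, with differences of -0.80 in SKO+Flag, -0.94 in SKO+HDAC7 and -0.47 in SKO+MEF2C (limma adjusted p 0.000455, 8.84e-05 and 0.0231). Aldh6a1, a mitochondrial enzyme of valine breakdown, fell by 0.37 ± 0.09 with HDAC7 and rose with MEF2C by 0.36 ± 0.09 (limma adjusted p = 0.0295 and 0.0352). Aldh1l2, a mitochondrial folate enzyme, differed by -0.19 ± 0.06 with HDAC7 and 0.24 ± 0.06 with MEF2C (limma adjusted p = 0.0484 and 0.0166). Aldh1l2 lay below the array median on most SKO arrays.

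Among 7 measured genes of retinoid uptake and binding, HDAC7 raised 1 and lowered 1 (10.9% of all genes changed), and MEF2C raised 2 and lowered 0 (10.3%). Lrp2, the megalin gene of the endocytic uptake of retinol binding protein, fell by 0.94 ± 0.04 with HDAC7 (limma adjusted p = 3.85e-07), and rose with MEF2C by 0.21 ± 0.04 (limma adjusted p = 0.0083). Lrp2 lay below the array median on every SKO+HDAC7 array. Fabp5, a fatty acid binding protein that can carry retinoic acid, rose with MEF2C by 0.49 ± 0.06 (limma adjusted p = 0.000213) and differed by 0.07 with HDAC7 (0.51). Among 14 measured genes listed as targets of retinoic acid, HDAC7 raised 0 and lowered 3, and MEF2C raised 1 and lowered 0, against the same 10.9% and 10.3%. Tgm2, the tissue transglutaminase gene, gave 9.65 and 9.56 in SKO+Flag at day 6 and 9.83 and 9.83 at day 10. It gave 8.51 and 8.49, then 8.57 and 8.64, in SKO+HDAC7, a difference of -1.16 ± 0.05 (2.23-fold, limma adjusted p = 3.06e-07), while SKO+MEF2C differed by 0.10 (0.268). Dhrs3, which reduces retinal to retinol, was named after its values were seen: it fell with both factors, with differences of -0.38 ± 0.06 with HDAC7 and -0.33 ± 0.06 with MEF2C against the same SKO+Flag arrays (limma adjusted p = 0.00229 and 0.0059). Of 11 measured receptor and coregulator genes HDAC7 raised 1 and lowered 0, and none of the 3 other breakdown enzyme genes passed with either factor.

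**Figure D4:**
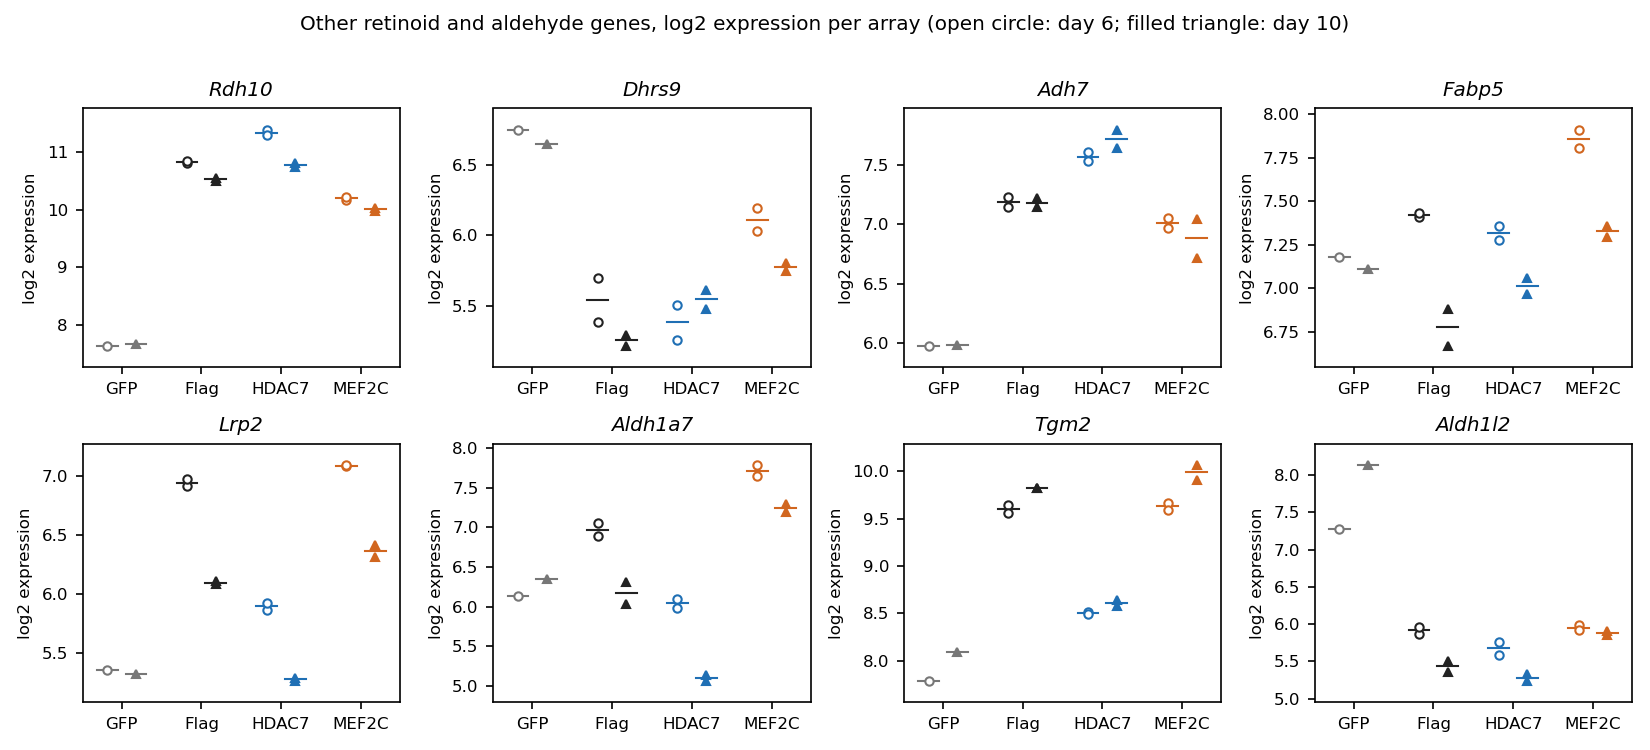
Log2 expression of 8 other genes of retinoid and aldehyde metabolism on each array, by vector; open circles are day 6, filled triangles day 10 and short lines group means, and each panel has its own axis. Rdh10 lies at 7.63 and 7.66 in GFP against 9.98 to 11.38 in the SKO arrays, and Tgm2 is lower in the SKO+HDAC7 arrays than in the other SKO arrays.

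Some markers of cell types, fibroblasts among them, also passed the tests of the added factors. With HDAC7, 2 of 10 fibroblast markers rose (4.83% of all genes did) and 6 fell (6.06%), and with MEF2C 3 rose (5.49%) and 0 fell (4.82%); their mean log2 level was 10.71 to 11.04 in GFP, 9.73 to 9.93 in SKO+Flag, 9.55 to 9.91 in SKO+HDAC7 and 9.95 to 10.03 in SKO+MEF2C. Of 7 mesothelial markers, 4 rose and 0 fell with HDAC7 and 1 rose and 2 fell with MEF2C, but Upk3b, Wt1, Lrrn4 and Bnc1 lay below the array median on all 14 arrays; the mean level was 6.43 to 6.76 in SKO+HDAC7, 6.26 to 6.36 in SKO+Flag, 6.28 to 6.36 in SKO+MEF2C and 5.63 to 5.99 in GFP. Of 8 markers of corneal and surface epithelium, where Aldh3a1 is abundant, 2 rose and 0 fell with HDAC7 and 1 rose and 2 fell with MEF2C, and Krt5, Krt15, Trp63, Pax6 and Krt18 lay below the array median on all 14 arrays. Their mean level was 5.7 to 6.12 in SKO+HDAC7, 5.60 to 5.92 in SKO+Flag, 5.56 to 5.73 in SKO+MEF2C and 5.60 to 5.66 in GFP. Of 6 neural markers, 3 rose and 0 fell with HDAC7 and 1 rose and 0 fell with MEF2C; their mean level was 6.29 to 6.49 in SKO+HDAC7, 6.07 to 6.27 in SKO+Flag, 6.23 to 6.44 in SKO+MEF2C and 6.34 to 6.36 in GFP, and Gfap and Sox10 lay below the array median on all 14 arrays. With HDAC7 1 of 5 endothelial, 1 of 7 macrophage and blood and 1 of 6 pluripotent markers rose, and 0 of 6 liver and endoderm markers changed; with MEF2C 1 endothelial marker rose and 1 fell, and 0 of the other 3 lists changed. The part of these cell types in the results for the 9 genes was not tested.

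Genes with the pattern most like each member were named by Pearson correlation over the 12 SKO arrays, among 2217 genes above the median level whose group means spanned at least 0.5. These arrays share vectors and days, so the correlations describe shared differences between 6 groups. Aldh3a1 was most like Tmem63a (0.988) and Gda, the guanine deaminase gene (0.985). Aldh1a1 was most like Akr1c14, an aldo-keto reductase gene (0.987), and Chp1 (0.982), and Crabp1 most like Tspan15 (0.989) and Tppp3 (0.989). Crabp2 was most like Tspan14 (0.978) and Tmc3 (0.970), Aldh2 most like Plod1 (0.941) and Fndc1 (0.923), Aldh1a3 most like Slc16a1 (0.918) and Gsdmd (0.914), and Cyp26b1 most like Igfbp3 (0.904) and B4galt1 (0.903). Aldh1a2 and Rarb spanned less than 0.5 and were not compared.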

How the data were processed

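Per the file headers, the authors deposited 1 log2 value for each probe set and array. The submitters' processing notes name RMA and Partek and give neither versions nor settings. The platform annotation gave 1 gene for 21780 of 28815 probe sets, several for 1605 and none for 5430. Each of the 19935 genes was represented by its probe set of highest mean, and each of the 9 genes had only 1. All differences came from a single limma fit (version 3.58.1, R 4.3.3) of 8 group means (vector by day) with 6 residual and 4.71 prior degrees of freedom. P-values were adjusted by Benjamini-Hochberg over all genes, with a threshold of 0.05, and no p-value is given for comparisons with GFP. Errors are standard errors of that fit. Precision is limited by the number of arrays, and replicate arrays differed with an SD of 0.117 to 0.171 over genes. The fit was tested on simulated data. Promoter sequences came from RefSeq, GRCm38.p6.

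The members and gene lists were chosen with earlier results of these data known. Text names were set by a rule: the 9 genes, the transduced factors, up to 4 called pathway genes per comparison by size of difference, and the 2 most correlated genes per member. Dhrs3 lies outside that rule. The pathway lists covered uptake and binding, retinol and retinal, other aldehyde dehydrogenases, receptors, targets and breakdown, and marker lists covered 8 cell types; some listed genes are not reported here. A description field repeated on all arrays was not used for grouping. Alternatives were quantile normalization, median centring, array weights, a robust prior, averaged probe sets, a filter at the median level, a minimum difference of 1, the SKO arrays or the compared groups alone, replicate blocks and leaving out each array.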

Additional observations from a re-analysis of the deposited data

Results flagged for a closer look

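The day 10 minus day 6 difference of Crabp1 had one sign in the 3 SKO groups and the other in GFP: 0.50 in SKO+Flag, 0.81 in SKO+HDAC7 and 0.61 in SKO+MEF2C, against -0.83 in GFP. For Crabp2 the day 10 arrays lay above the day 6 arrays in SKO+Flag (0.20) and SKO+MEF2C (0.19), against -0.34 in GFP, while in SKO+HDAC7 they lay on both sides of them (0.04); none of the 3 SKO differences passed the limma test (adjusted p 0.186, 0.321 and 0.819). For Cyp26b1 the difference was -0.10 in SKO+Flag (limma adjusted p = 0.691) and -0.53 in SKO+HDAC7 (0.00539), against 0.33 in GFP; in SKO+MEF2C it was 0.13 (0.697), the sign of GFP. With 1 GFP array per day, these differences between SKO and GFP were not tested. For Cyp26b1 the arrays of SKO+HDAC7 also lay above those of SKO+Flag at day 6 (0.18) and below them at day 10 (-0.26), and the limma test of this change gave an adjusted p of 0.284.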

How the results depend on the processing

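No tested result that passed in the main fit or in the alternative fit changed direction. Changes of sign in results that passed in neither fit were not counted. The calls of Aldh3a1, Aldh1a1 and Crabp1 over both days were kept, for HDAC7, MEF2C and their direct comparison, under every alternative without a minimum difference. With a difference of at least 1 also required, the members called fell to 0 for HDAC7 and 0 for MEF2C over both days (37 and 27 of all genes), 2 for their direct comparison, 0 and 0 for HDAC7 at days 6 and 10, 0 and 1 for MEF2C, and 0 for each day change. With the compared groups alone, 2 members were called at day 10 for HDAC7, 2 for MEF2C and 2 for the day change of SKO+Flag. The median member difference from GFP moved to -0.037 for SKO+MEF2C after quantile normalization, and with genes above the median level to 0.48 for SKO+Flag, 0.43 for SKO+HDAC7 and 0.76 for SKO+MEF2C, since fewer members remain. Leaving out each array gave 3 to 5 members for HDAC7 over both days (1469 to 2404 of all genes), 4 to 5 for MEF2C (1381 to 2148), 7 to 8 for the direct comparison, 3 to 3 and 3 to 4 for HDAC7 at days 6 and 10, 3 to 4 and 3 to 5 for MEF2C, 4 to 4, 2 to 4 and 2 to 2 for the day changes of SKO+Flag, SKO+HDAC7 and SKO+MEF2C, and medians of 0.22 to 0.40 for SKO+HDAC7 minus GFP and -0.029 (without the first day 10 array of SKO+Flag) to 0.077 for SKO+Flag minus GFP. Deviations of same-numbered arrays correlated between vectors at -0.0859 to 0.184, and not every pair exceeded 0.1, so the numbers were not taken to pair samples; with a replicate block over both days 4 and 5 members were called for HDAC7 and MEF2C (2152 and 2007 of all genes), and within each day 4 and 5 (2281 and 2034). With the block over both days and within each day, the limma adjusted p was 0.0572 and 0.0639 for Aldh1a3 under HDAC7 at day 10 and 0.0503 and 0.166 for its day rise in SKO+HDAC7, which lost those calls; Crabp2 under MEF2C at day 6 lost its call with the first (0.0505) and Aldh1a2 between SKO+HDAC7 and SKO+MEF2C with the second (0.0567). Calls gained were Aldh1a1 between days in SKO+HDAC7 (0.0281 and 0.0481) and Aldh2 under HDAC7 at day 10 (0.0307 and 0.0371). In SKO+Flag the correlation between days was -0.242, and with those numbers crossed, chosen after seeing the data, 4 members were called. Levels below the median gene limit what can be said of Aldh1a2, Rarb and the GFP values of Aldh3a1. The same holds for Aldh1a3, which lay below the array median on 8 of 14 arrays. Among the other pathway genes it holds for Dhrs9 in SKO+Flag and SKO+HDAC7, Lrp2 in SKO+HDAC7 and Aldh1l2 on most SKO arrays.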
